A study of Mus musculus with 6 samples.

Results

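The dual-specificity MAP kinase phosphatases are the 10 genes Dusp1, Dusp2, Dusp4, Dusp5, Dusp6, Dusp7, Dusp8, Dusp9, Dusp10 and Dusp16, found by symbol among the 23038 genes measured. Each symbol matched 1 gene, and all 10 passed the filter on low values that left 12665 genes for testing. Their messenger RNA was measured in NSC-34 cells, a mouse hybrid line of neuroblastoma and spinal cord motor neuron that is used as a motor neuron model. Cells received either a control siRNA (the 3 siNC libraries) or an siRNA that targets Qk (the 3 siQk libraries). The paper describes 3 independent NSC-34 cultures as the source of the libraries, and no label says whether an siNC and an siQk library shared one. Qk encodes the Quaking RNA-binding proteins, and cells were collected 3 days after transfection. Both groups carry the same hybrid genome and differ in the siRNA. The study used 3 different siRNAs against Qk, and the labels do not say which library received which, so differences between siQk libraries and between siRNAs cannot be told apart. The comparison asks whether the transcripts of these phosphatases change in level when Quaking is depleted.

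MAP kinase phosphatases switch off the MAP kinases ERK, JNK and p38 by removing phosphate from both the threonine and the tyrosine of the activation loop. The family is commonly divided by location and preferred substrate into inducible nuclear enzymes (Dusp1, Dusp2, Dusp4 and Dusp5), cytoplasmic enzymes that prefer ERK (Dusp6, Dusp7 and Dusp9) and enzymes that prefer JNK and p38 (Dusp8, Dusp10 and Dusp16). Several of them are themselves transcribed in response to MAP kinase signalling, so that the kinases induce their own inhibitors.

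The knockdown was read first. Qk was at 9.67, 8.18 and 14.9 RPKM (reads per kilobase of exon, scaled to the library total) in siNC replicates 1 to 3 and at 1.39, 1.71 and 1.10 RPKM in siQk replicates 1 to 3, a log2 fold change of -2.997 (SE 0.34, adjusted p = 0.0149, edgeR quasi-likelihood test). Library totals were 43000503 to 53565950 counts, with siQk replicate 2 the deepest. That library also stood apart from the rest: its mean R2 with the other 5 across genes was 0.930, against 0.942 to 0.966 for the others, and it was the highest of the 6 libraries for 28.8% of the 12665 genes tested. Among 7 neuron markers, Tubb3 was the most abundant in every library (142 to 349 RPKM), while Stmn2 was at or near 0 (at most 0.0080 RPKM). The sympathetic neuroblast gene Hand2 was at 121 to 205 RPKM. Of 6 motor neuron markers, Isl1 was at 4.75 to 9.63 RPKM, Slc18a3 at 1.56 to 2.29 RPKM and Lhx3 at 0.52 RPKM or less, and Mnx1, Chat and Slc5a7 were at or near 0 (at most 0.14 RPKM). Their sum was 6.85 to 7.39 RPKM in siNC and 9.83 to 12.6 RPKM in siQk, of which Isl1 was 4.75 to 4.83 and 7.80 to 9.63 RPKM, while Slc18a3 overlapped between the groups. Summed over 4 oligodendrocyte markers, the level was 3.26 to 3.73 RPKM in siNC and 1.79 to 2.91 RPKM in siQk. The part of these markers in the values below was not tested.

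All 10 phosphatase transcripts were present in every library, over a wide span of levels. Dusp6 was the most abundant, with a mean of 135 RPKM over the 6 libraries, above 95.9% of the genes tested. Dusp4 followed at 61.0 RPKM, above 89.2% of them. The other 8 lay between 2.87 RPKM (Dusp16) and 10.5 RPKM (Dusp8), in the lower 49.5% of the genes tested. Dusp6 alone made up 54.5% of the summed level of the family on average (44.1% to 66.7% between libraries), and Dusp4 a further 25.1% (17.9% to 29.6%).

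**Figure D1:**
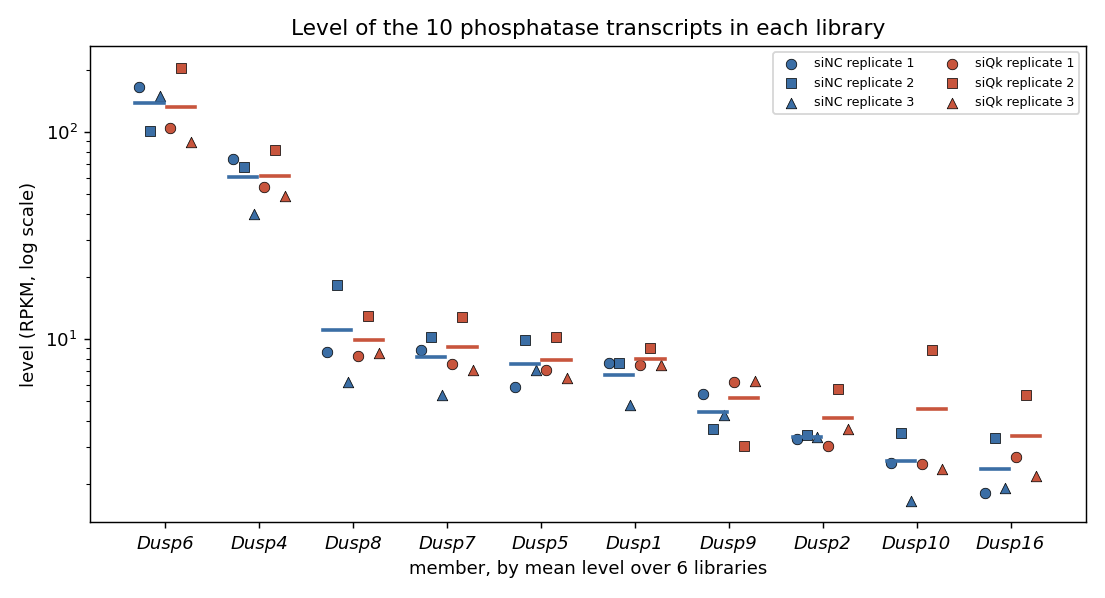
Level of each of the 10 phosphatase transcripts in RPKM (log axis) in the 3 siNC (blue) and 3 siQk (red) libraries, with a symbol for each replicate and a bar at each group mean. Dusp6 (89.0 to 204 RPKM) and Dusp4 (40.1 to 81.3 RPKM) stood above the other 8, and siQk replicate 2 (red square) was the highest library for 8 members.

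The order of the levels was Dusp6, Dusp4, Dusp8, Dusp7, Dusp5, Dusp1, Dusp9, Dusp2, Dusp10 and Dusp16. Neighbours in this order were compared within libraries on the scale of log2(RPKM + 0.01) by an exact permutation test, two-sided, that runs through 64 sign patterns and can give no p below 0.03125. Dusp6 was above Dusp4 by 1.13 ± 0.46 (SD, n = 6), Dusp4 above Dusp8 by 2.60 ± 0.40 and Dusp1 above Dusp9 by 0.64 ± 0.56, each in 6 of 6 libraries with that smallest exact p, which became 0.0938 after Benjamini-Hochberg adjustment over the 9 pairs. The ranges did not overlap for the first and second of these pairs, and did for Dusp1 and Dusp9. The other 6 neighbouring pairs were separated by 0.073 to 0.34 and held their order in 3 to 5 of the libraries (exact permutation p = 0.0938 to 0.688), so that their places in the order did not differ beyond the spread. The direction of each difference was fixed by the ordering itself.

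The nuclear inducible members were led by Dusp4 (Entrez 319520, GRCm38.p6 chromosome 8, 34807610 to 34819894, plus strand), a phosphatase of ERK and JNK. It was at 74.2, 67.5 and 40.1 RPKM in siNC replicates 1 to 3 and at 54.3, 81.3 and 48.8 RPKM in siQk replicates 1 to 3. The groups overlapped, and the log2 fold change of siQk over siNC was 0.0011 (SE 0.33, adjusted p = 0.9996, edgeR, exact permutation p = 1 on RPKM). Dusp5 (Entrez 240672, chromosome 19, 53529145 to 53541809, plus strand), which acts on ERK in the nucleus, had 5.87, 9.87 and 7.07 RPKM in siNC and 7.05, 10.2 and 6.50 RPKM in siQk. The 2 highest libraries came 1 from each group, and the log2 fold change was 0.037 (SE 0.28, adjusted p = 0.9996, edgeR, exact permutation p = 0.8 on RPKM). In the GENCODE annotation 547 of its 2473 exon bases are shared with a gene on the opposite strand, as are 11 of 3311 for Dusp1 and 66 of 4870 for Dusp8, and reads there carry no strand. The authors counted over models of other lengths (1155 bases for Dusp5, 2311 for Dusp1 and 4819 for Dusp8), and whether these hold the shared bases was not tested.

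Dusp1 (Entrez 19252, chromosome 17, 26505591 to 26508472, minus strand), the archetype of the family and an early response gene to growth factors and stress, had 7.66, 7.63 and 4.78 RPKM in siNC and 7.46, 9.02 and 7.51 RPKM in siQk. One siNC library lay below the other 5, which spanned 7.46 to 9.02 RPKM. The log2 fold change was 0.24 (SE 0.22, adjusted p = 0.9996, edgeR, exact permutation p = 0.6 on RPKM). Dusp2 (Entrez 13537, chromosome 2, 127336159 to 127338377, plus strand), best known from activated immune cells, had 3.28, 3.45 and 3.35 RPKM in siNC and 3.04, 5.72 and 3.66 RPKM in siQk. The SD of the siNC libraries was 0.0849 RPKM, while siQk replicate 2 was 1.56 times the next highest library and siQk replicate 1 was the lowest of all. The log2 fold change was 0.28 (SE 0.27, adjusted p = 0.9996, edgeR, exact permutation p = 0.6 on RPKM).

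Dusp6 (Entrez 67603, chromosome 10, 99263231 to 99267489, plus strand) binds ERK in the cytoplasm and is a classical feedback inhibitor of growth factor signalling. It had 165, 101 and 149 RPKM in siNC and 104, 204 and 89.0 RPKM in siQk. The siQk group held both the highest and the lowest library, 2.30 times apart, and its SD (62.8 RPKM) was larger than that of siNC (33.5 RPKM). The means were 138 and 132 RPKM (n = 3 each), with a log2 fold change of -0.094 (SE 0.43, adjusted p = 0.9996, edgeR, exact permutation p = 0.9 on RPKM).

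Dusp7 (Entrez 235584, chromosome 9, 106368560 to 106375724, plus strand), its close relative, had 8.82, 10.2 and 5.34 RPKM in siNC and 7.595, 12.8 and 7.08 RPKM in siQk, with a log2 fold change of 0.15 (SE 0.37, adjusted p = 0.9996, edgeR, exact permutation p = 0.7 on RPKM). Dusp9 (Entrez 75590, chromosome X, 73639389 to 73643514, plus strand), a cytoplasmic ERK phosphatase needed in the placenta, had 5.41, 3.66 and 4.30 RPKM in siNC and 6.19, 3.02 and 6.24 RPKM in siQk. Between the siQk libraries it ran the other way from the other 9 members. Here siQk replicates 1 and 3 were the highest of the 6 and siQk replicate 2 was the lowest. The log2 fold change of Dusp9 was 0.18 (SE 0.39, adjusted p = 0.9996, edgeR, exact permutation p = 0.6 on RPKM).

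Among the members that prefer JNK and p38, Dusp8 (Entrez 18218, chromosome 7, 142079487 to 142095907, minus strand), a phosphatase prominent in brain and heart, had 8.59, 18.2 and 6.19 RPKM in siNC and 8.28, 13.0 and 8.52 RPKM in siQk. Replicate 2 was the highest of each group, and the highest of all was in siNC. The log2 fold change was -0.16 (SE 0.48, adjusted p = 0.9996, edgeR, exact permutation p = 0.8 on RPKM). Its sign depended on 1 library, since without siNC replicate 2 it was 0.38 and without siNC replicate 3 it was -0.43.

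Dusp10 (Entrez 63953, chromosome 1, 184034381 to 184075636, plus strand), which inactivates JNK and p38 in both cytoplasm and nucleus, had 2.52, 3.53 and 1.65 RPKM in siNC and 2.4996, 8.85 and 2.34 RPKM in siQk. The counts behind these levels were 348, 453 and 193 in siNC and 309, 1285 and 293 in siQk. A single library set the group mean: siQk replicate 2 was 2.51 times the next highest library, and siQk replicates 1 and 3 lay inside the siNC range. The log2 fold change was 0.81 (SE 0.68, adjusted p = 0.9996, edgeR, exact permutation p = 0.7 on RPKM), the furthest from 0 of the 10 members, and without siQk replicate 2 it was -0.099 (SE 0.29).

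Dusp16 (Entrez 70686, chromosome 6, 134715468 to 134807063, minus strand), a JNK phosphatase that shuttles between nucleus and cytoplasm, had 1.81, 3.34 and 1.90 RPKM in siNC and 2.67, 5.33 and 2.18 RPKM in siQk. Again siQk replicate 2 was the highest, at 1.60 times the next library, which was siNC replicate 2. The log2 fold change was 0.51 (SE 0.47, adjusted p = 0.9996, edgeR, exact permutation p = 0.5 on RPKM) and fell to 0.031 (SE 0.30) without siQk replicate 2.

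None of the 10 phosphatases was called changed. The call asked for p under 0.01 together with an adjusted p under 0.1 in the quasi-likelihood test of edgeR, and 1 of 12665 genes met it, Qk (0.00790%). None was called by the edgeR exact test, which called 5 genes (0.0395%), or by DESeq2, which called 19 (0.150%). At an unadjusted p under 0.05, 0 of the 10 passed the quasi-likelihood test, against 2.89% of all genes tested (1.20% higher and 1.69% lower in siQk). Adjusted p-values were 0.9996 for every member in edgeR, and Dusp10 and Dusp16 had the smallest unadjusted p of the 10. The groups did not separate for any of the 10 in RPKM, against 8.84% of all genes (5.35% higher and 3.49% lower in siQk). The standard errors, 0.22 to 0.68 on the log2 scale, are those of the difference between the 2 group means and grow with the spread of the 3 libraries in each group. A p that misses the threshold does not show that the groups were alike.

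Fold changes were above 0 for 8 members and below 0 for 2, with a median of 0.17 against 0.0034 for all genes tested. That median depended on single libraries, at 0.039 without siNC replicate 3. Without siQk replicate 2 it was -0.13, and all genes tested had a median of -0.0095. Fold changes then lay below 0 for Dusp2 (-0.028), Dusp4 (-0.25), Dusp5 (-0.19), Dusp7 (-0.16), Dusp8 (-0.40) and Dusp10 (-0.099) as well as Dusp6. Dusp6 was at -0.55 (SE 0.26, adjusted p = 0.9999, edgeR) and passed an unadjusted p of 0.05 in that fit, as did 2.72% of all genes. Dusp9 moved the other way, to 0.45 (SE 0.17), and was the only member whose groups no longer overlapped, higher in both remaining siQk libraries. Without siQk replicate 2, groups did not overlap for 17.1% of all genes (10.2% higher and 6.95% lower), so that 1 of 10 members was no more than the background. Dusp10 passed an unadjusted p of 0.05 when siQk replicate 1 (log2 fold change 1.10, SE 0.99, adjusted p = 0.9997, edgeR) or siQk replicate 3 (1.12, SE 0.95, adjusted p = 0.9998, edgeR) was left out, as did 3.08% and 2.30% of all genes. Both fits keep siQk replicate 2.

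**Figure D2:**
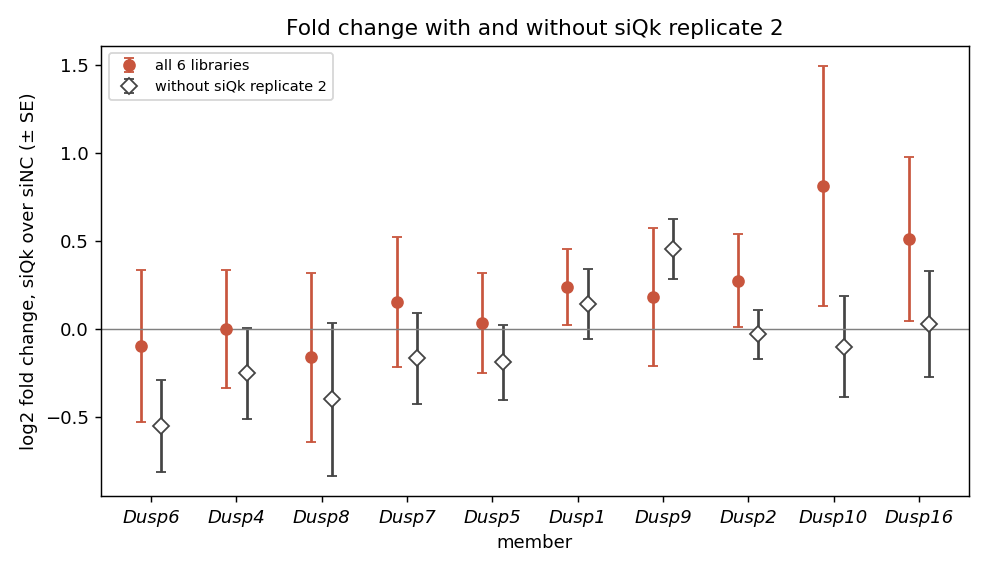
Log2 fold change of siQk over siNC with its SE for each member, from all 6 libraries (red circles) and without siQk replicate 2 (open diamonds). Without that library Dusp10 went from 0.81 to -0.099 and Dusp16 from 0.51 to 0.031, whereas Dusp9 went from 0.18 to 0.45.

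Libraries of the same group differed widely. The highest of the 6 libraries was siQk replicate 2 for 8 of 10 members, where the background is 28.8% of genes, and the same 8 were counted on RPKM and on TMM-scaled CPM (counts relative to library size). The exceptions were Dusp8, highest in siNC replicate 2, and Dusp9, highest in siQk replicate 3. For 3 members (Dusp2, Dusp10 and Dusp16) siQk replicate 2 was over 1.5 times the next highest library, which held for 2.98% of all genes. Its ratio to the mean of the other 5 libraries was 3.53 for Dusp10, 2.24 for Dusp16, 1.71 for Dusp2, 1.68 for Dusp6 and 1.64 for Dusp7, and between 1.29 and 1.43 for Dusp1, Dusp4, Dusp5 and Dusp8. For Dusp9 it was 0.585. At the other end, siNC replicate 3 was the lowest library for 5 members (Dusp1, Dusp4, Dusp7, Dusp8 and Dusp10), against 30.9% of all genes. These 2 libraries had the most and the fewest counts (53565950 and 43000503) and the lowest mean R2 with the others (0.930 and 0.942). Summed over 7 neuron markers, the level was 252 to 525 RPKM in siNC, lowest in siNC replicate 3, and 385 to 526 RPKM in siQk, lowest in siQk replicate 2. The markers did not move together in siQk replicate 2, where Tubb3 was at 186 RPKM while Snap25 (71.3 RPKM) and Elavl3 (13.8 RPKM) were the highest of the 6 libraries. The part of depth and of these markers in the phosphatase values was not tested. In RNA from whole cultures, a change in the share of cells that express a gene and a change in RNA per cell cannot be told apart.

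**Figure D3:**
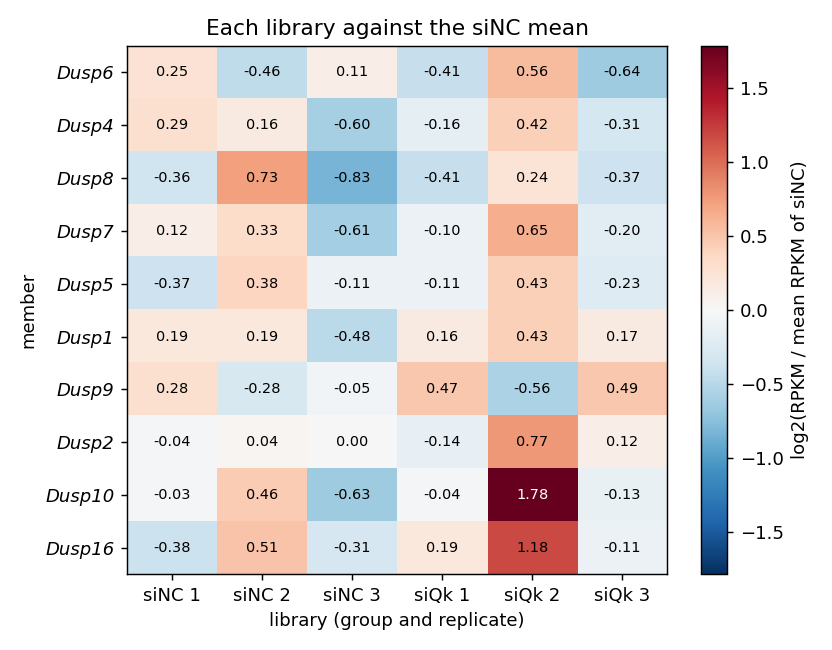
Level of each member (rows) in each library (columns) as log2 of its RPKM over the siNC mean, from blue (below) to red (above). The siQk replicate 2 column is above 0 for 9 members, up to 1.78 for Dusp10, and at -0.56 for Dusp9.

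By class, the 4 nuclear inducible members summed to 91.0, 88.5 and 55.3 RPKM in siNC and 71.8, 106 and 66.5 RPKM in siQk. The means were 78.3 ± 19.9 and 81.5 ± 21.6 RPKM (SD, n = 3 each; exact permutation p = 1, two-sided, smallest possible 0.1). The 3 ERK-selective members summed to 179, 114 and 159 RPKM in siNC and 118, 220 and 102 RPKM in siQk, with means of 151 ± 33.0 and 147 ± 64.1 RPKM (exact permutation p = 0.9). In both classes the difference between the means was a small part of either SD.

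The 3 members that prefer JNK and p38 summed to 12.9, 25.1 and 9.75 RPKM in siNC and 13.4, 27.1 and 13.0 RPKM in siQk, with means of 15.9 ± 8.08 and 17.9 ± 8.02 RPKM (exact permutation p = 0.5). They made up 4.35% to 10.99% of the family's summed level, the ERK-selective members 50.2% to 71.0% and the nuclear members 24.7% to 38.8%. Over all 10 members the sum was 245 ± 32.9 RPKM in siNC and 246 ± 93.7 RPKM in siQk (exact permutation p = 1), with 354 RPKM in siQk replicate 2 and 182 RPKM in siQk replicate 3. Without siQk replicate 2 the summed difference was -52.5 RPKM, at the smallest p that 3 against 2 libraries can give (exact permutation p = 0.1).

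**Figure D4:**
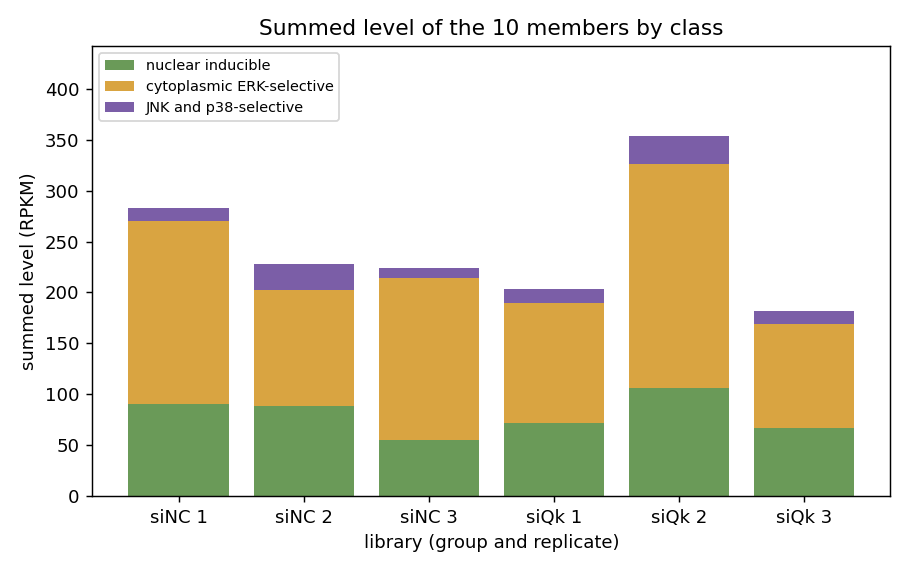
Summed RPKM of the 10 members in each library, stacked by class. The total ran from 182 RPKM (siQk replicate 3) to 354 RPKM (siQk replicate 2), and the ERK-selective members were the largest share in every library.

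Promoters are shown for Dusp1, Dusp8 and Dusp10, the first and second because they hold the full cAMP response element and Dusp10 because it had the fold change furthest from 0. RefSeq promoters of GRCm38.p6 matched 8 of the 10 members, all but Dusp4 and Dusp9, and the 250 bases before the transcript start given there were searched on both strands. For Dusp7, Dusp8 and Dusp16 that start is not the outer end of the gene, and the Dusp8 window lies inside the gene span printed above. Capitals mark TGACG, the core of the cAMP response element, as read on the printed strand, and the full element TGACGTCA, which contains TGACG on each strand. The 3 windows are chr17:26508473-26508722 (minus strand), chr7:142095285-142095534 (minus strand) and chr1:184034131-184034380 (plus strand).
Dusp1: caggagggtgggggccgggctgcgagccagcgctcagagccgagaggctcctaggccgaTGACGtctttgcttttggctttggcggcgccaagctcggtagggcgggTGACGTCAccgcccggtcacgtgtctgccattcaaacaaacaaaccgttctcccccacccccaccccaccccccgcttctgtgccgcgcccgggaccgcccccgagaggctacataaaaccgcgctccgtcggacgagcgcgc
Dusp8: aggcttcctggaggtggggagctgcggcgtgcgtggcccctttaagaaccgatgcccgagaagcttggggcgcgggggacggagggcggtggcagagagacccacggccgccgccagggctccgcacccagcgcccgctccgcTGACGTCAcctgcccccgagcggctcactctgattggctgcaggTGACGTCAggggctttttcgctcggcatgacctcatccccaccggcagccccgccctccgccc
Dusp10: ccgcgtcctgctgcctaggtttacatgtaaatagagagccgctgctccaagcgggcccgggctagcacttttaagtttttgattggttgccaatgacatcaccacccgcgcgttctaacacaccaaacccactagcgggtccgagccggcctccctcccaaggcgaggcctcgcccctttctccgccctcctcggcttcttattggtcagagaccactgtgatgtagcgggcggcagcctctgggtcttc

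The full element occurred once in the Dusp1 window and at 2 places in the Dusp8 window, and in 1.55% of 32851 RefSeq promoters. TGACG was found in 4 of the 8 windows (Dusp1, Dusp5, Dusp8 and Dusp16), against 17.8% of all promoters, and not in the Dusp10 window. The AP-1 site TGANTCA was in none of the 8 (6.75% of all promoters), the CArG box, bound by serum response factor, was in that of Dusp5 alone (1.47%), and the GC box GGGCGG was in 6 of the 8 (32.7%). These are matches of letters and not binding sites measured here.

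Other genes of the pathway were read from lists, and every gene named from them had an adjusted p of 0.9996 in edgeR. Of 17 atypical dual-specificity phosphatases, most of which lack the MAP kinase binding domain, 13 were tested and 0 were called, and 0 had an unadjusted p under 0.05 in edgeR. The smallest p values were for Styxl1, a catalytically inactive relative (log2 fold change -0.80, SE 0.31), and for Dusp11, an RNA phosphatase (-0.35, SE 0.16). Styxl1 was at 0.725 to 1.31 RPKM in siNC and 0.463 to 0.704 RPKM in siQk, and Dusp11 at 18.3 to 22.0 RPKM in siNC and 13.5 to 17.0 RPKM in siQk, so that the groups of neither overlapped, against 3.49% of all genes that were lower without overlap. Dusp12 was at 19.9 to 29.0 RPKM in siNC and 26.7 to 44.3 RPKM in siQk (0.39, SE 0.28).

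None of the substrates, upstream kinases and scaffolds was called, and 0 of them had an unadjusted p under 0.05 in edgeR. Of 10 MAP kinases 9 were tested, with 3 fold changes above 0 and 6 below. Mapk7 (ERK5) had the smallest p of them (0.34, SE 0.21) and Mapk3 (ERK1) was at 71.8 to 96.2 RPKM in siNC and 68.2 to 81.8 RPKM in siQk (-0.20, SE 0.13). Of 7 MAP kinase kinases 6 were tested, and Map2k1 (MEK1) stood at -0.20 (SE 0.11). The 6 JNK scaffolds had 1 fold change above 0 and 5 below, with a median of -0.15 against 0.0034 for all genes. Mapk8ip3 (JIP3), which carries JNK along axons, was at -0.24 (SE 0.25).

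Of 8 phosphatases of other families that act on MAP kinases 7 were tested. Ptpn7, a tyrosine phosphatase of ERK, was the only one with an unadjusted p under 0.05 (1.69% of all genes passed and were lower), at 0.8997 to 1.90 RPKM in siNC and 0.685 to 0.948 RPKM in siQk (-0.78, SE 0.35). Ppp2cb, a catalytic subunit of PP2A, was at 70.3 to 74.8 RPKM in siNC and 76.0 to 93.3 RPKM in siQk (0.16, SE 0.11), without overlap, against 5.35% of all genes that were higher without overlap.

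The transcripts that report ERK activity had fold changes on both sides of 0. Of 16 output and feedback genes 13 were tested, with 6 fold changes above 0 and 7 below, 0 at an unadjusted p under 0.05 and 0 called by edgeR. Egr1, an immediate-early transcription factor, was at 20.9, 13.5 and 31.4 RPKM in siNC and 9.83, 23.4 and 9.36 RPKM in siQk (-0.67, SE 0.57). Phlda1 was at 56.5, 23.9 and 21.4 RPKM in siNC and 42.6, 87.3 and 26.9 RPKM in siQk (0.60, SE 0.65), and Etv4, a target of FGF and ERK signalling, was at -0.27 (SE 0.14). Phlda1 was highest in siQk replicate 2, as Dusp6 was, while Egr1 was highest in siNC replicate 3.

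Among 12 AP-1 and early response genes 10 were tested and 2 had an unadjusted p under 0.05, both lower in siQk, where the background for lower genes is 1.69%. Fosl2, an AP-1 subunit, was at 13.5, 10.6 and 13.8 RPKM in siNC and 7.95, 10.3 and 8.52 RPKM in siQk (-0.53, SE 0.18), without overlap, against 3.49% of all genes that were lower without overlap. Myc, a growth regulator, was at 99.7, 79.2 and 101 RPKM in siNC and 79.8, 60.4 and 70.4 RPKM in siQk (-0.44, SE 0.18), with 1 siQk library just above the lowest siNC library. The 6 proteins that bind AU-rich elements, which shorten or lengthen the life of messages such as those of early response genes, were all tested and 0 were called, with 0 at an unadjusted p under 0.05 in edgeR. They had 5 fold changes above 0 and 1 below, with a median of 0.064. The 1 below was Zfp36l1, at 0.250 to 0.510 RPKM in siNC and 0.257 to 0.320 RPKM in siQk (-0.56, SE 0.34).

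The level in siQk replicate 2 was also read for each list. Its median deviation from the mean of the other 5 libraries, in log2 CPM, was 0.62 for the 10 phosphatases, 0.34 for the ERK output and feedback genes, 0.21 for the atypical phosphatases and 0.19 for the AU-rich element binding proteins, and it was -0.056 for the MAP kinases and -0.23 for the JNK scaffolds. For all genes tested it was 0.014. The phosphatases were at -0.55 in siNC replicate 3, where the ERK output genes were at -0.064, and at 0.21 in siNC replicate 2, where the ERK output genes were at -0.25. In siNC replicate 1 the ERK output genes were at 0.36, above their value in siQk replicate 2, and the phosphatases at -0.044. Of the 13 ERK output genes tested, 4 were highest in siQk replicate 2, against 28.8% of all genes. The atypical phosphatases reached 0.36 in siNC replicate 2. The AP-1 and early response genes were at 0.16 in siQk replicate 2 and 0.40 in siNC replicate 1. These are descriptions of single libraries and were not tested. No gene of any of these lists was called by the edgeR exact test or by DESeq2 either.

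**Figure D5:**
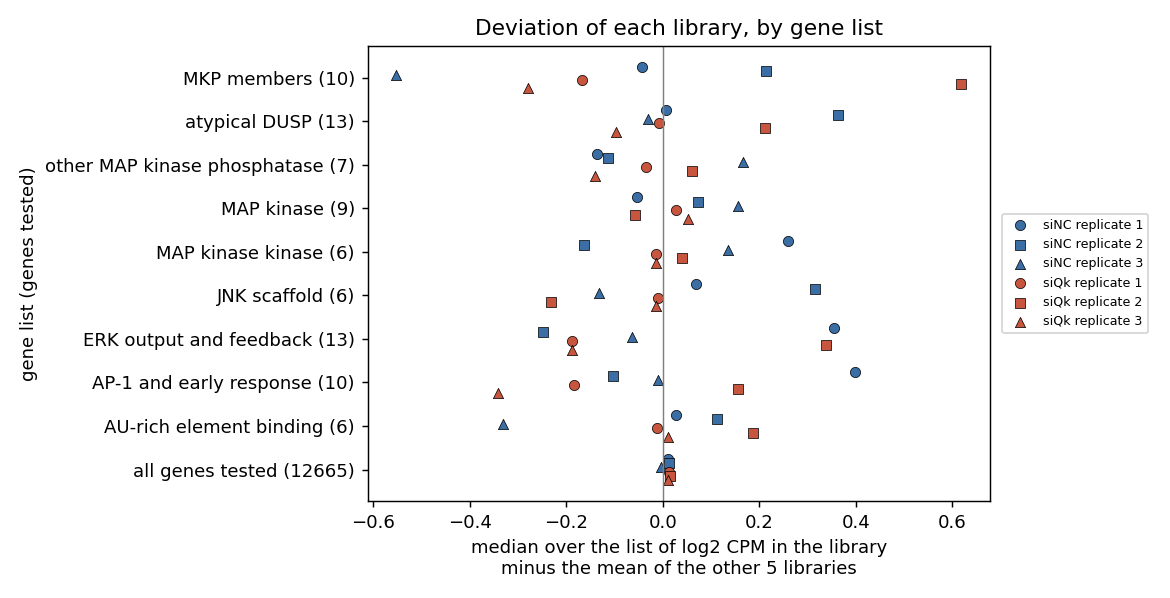
Median over each gene list of the log2 CPM in a library minus the mean of the other 5 libraries, for the 3 siNC (blue) and 3 siQk (red) libraries, with the number of genes tested in brackets. The phosphatases reach 0.62 in siQk replicate 2 and -0.55 in siNC replicate 3, while all genes tested lie within 0.014 of 0.

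For the 3 members that varied most between libraries, the other genes with the most similar pattern over the 6 libraries were found by Pearson's r of log2 CPM. For Dusp10 these were Ube2a, a ubiquitin-conjugating enzyme (r = 0.994), and Gpatch3 (r = 0.992), among 293 genes with r above 0.9. Ube2a was at 19.0, 23.7 and 16.6 RPKM in siNC and 19.5, 35.0 and 19.0 RPKM in siQk, with the same single high library. For Dusp16 they were 2410066E13Rik (r = 0.996) and Zfp526 (r = 0.995), among 192 such genes. For Dusp8 they were Ostm1 (r = 0.986) and Tmem90b (r = 0.985), among 82, and Ostm1 peaked in siNC replicate 2 as Dusp8 did (47.2, 88.1 and 39.9 RPKM in siNC and 52.7, 67.9 and 51.8 RPKM in siQk). These were picked as the highest among all genes tested over the same 6 libraries, 2 of which stand apart, and are given as a description.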

How the data were processed

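Messenger RNA of NSC-34 cells was sequenced in 3 siNC and 3 siQk libraries. The authors selected poly-A RNA, aligned read pairs with OLego and used Quantas to count reads for each gene. The submitters' processing notes name mm10. The kit keeps no strand. The deposited values used were expected counts per gene (21.9% to 22.9% of them not whole in a library) and RPKM, which the authors scaled by exon length and library total. The expected counts were rounded to whole numbers. Gene positions and promoters are those of RefSeq on GRCm38.p6, and shared exon bases are from GENCODE, and both can differ from the gene models that were counted.

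Genes with a mean log2 CPM above 0 were kept and TMM-scaled. siQk was tested against siNC in edgeR 4.0.16 (R 4.3.3) by its quasi-likelihood test. A call needed p under 0.01 and, with Benjamini-Hochberg adjustment across 12665 genes, an adjusted p under 0.1. Beside this test, an exact permutation test of RPKM over the 20 arrangements of 3 against 3 is given, whose smallest p is 0.1. Other tests were the edgeR exact and likelihood-ratio tests and DESeq2 1.42.0. Standard errors come from TMM-scaled log2 CPM (prior count 2). They are of the difference between the group means, from the variance within each group, and are not the error that the edgeR test uses. The scripts were tested on simulated data. Alternatives were other scalings, filters, tests and designs and leaving out each library. The overlap of groups without siQk replicate 2 and the ranking on TMM-scaled values were added after the data were seen. Precision is limited by having 3 libraries per group.

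The deviations of siNC and siQk libraries with the same number correlated at 0.21, 0.018 and -0.17, and no label says that a number marks a shared culture, so no block was used. Genes named are the 10 members, Qk, up to 3 genes per list with the smallest p and any that were called, and the 2 genes most like each of the 3 members with the widest range. Cell type markers are named beside these from their own lists, and which of them to name was chosen after their values were seen. The members, classes and lists were chosen with earlier results of these data known.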

Additional observations from a re-analysis of the deposited data

How the results depend on the processing

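None of the 10 phosphatases was called under any alternative run. The number of genes called, 1, became 5 with the edgeR exact test, 5 with the edgeR likelihood-ratio test and 19 with DESeq2, and ran from 0 to 1 with 1 library left out (0 without siNC replicate 1). Of 160 refits of a member's fold change, 144 kept their direction and 16 turned it. The edgeR exact and likelihood-ratio tests and the robust form of the quasi-likelihood test hardly alter the estimate, so those refits could hardly turn. Dusp4, at 0.0011, turned with DESeq2 size factors (-0.0010), upper quartile scaling (-0.00099), no filter (-0.0031) and DESeq2 (-0.0034). The other turns all came with 1 library left out.

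With 1 library left out, log2 fold changes ran from 0.065 to 0.34 for Dusp1, -0.028 to 0.46 for Dusp2, -0.25 to 0.17 for Dusp4, -0.19 to 0.24 for Dusp5, -0.55 to 0.12 for Dusp6, -0.16 to 0.33 for Dusp7, -0.43 to 0.38 for Dusp8, 0.013 to 0.45 for Dusp9, -0.099 to 1.12 for Dusp10 and 0.031 to 0.82 for Dusp16. The lowest median of the 10 was -0.13 (siQk replicate 2 left out) and the highest 0.29 (siNC replicate 2 left out). The summed difference of siQk minus siNC ran from -9.10 to 10.8 RPKM for the nuclear members, -40.8 to 18.2 for the ERK-selective, -2.66 to 6.54 for those that prefer JNK and p38 and -52.5 to 33.4 for all 10, the last of which was -3.38 RPKM after TMM rescaling. The cause of these shifts was not tested. With the replicate number as a block the median was 0.14, with 1 gene and 0 members called. The number of members whose groups did not overlap was 1 without siQk replicate 2. With 3 libraries a group, the spread between them limits what could be seen.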
